A study of Mus musculus with 12 samples.

Results

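On day 12 of reprogramming, mouse cells that carried the surface sugar SSEA-1 and cells from the same time point that lacked it were sorted apart, and the messenger RNA of each fraction was sequenced as 1 library. The starting cells were mouse embryonic fibroblasts (MEFs) with a GFP reporter placed behind Oct4 (gene symbol Pou5f1), infected for 24 h with pMXs retroviruses that carry Sox2, Klf4, Oct4 and c-Myc (together OSKM), and then kept in a serum replacement medium with LIF, ascorbic acid, bFGF, CHIR99021 and N-2, with no feeder layer. The SSEA-1+ fraction is called D12S+ and the SSEA-1- fraction D12S-, and both hold cells that met the same 4 viruses. The 12354 of the 24098 genes in the table with at least 1 FPKM (fragments per kilobase of transcript, scaled to the mapped fragments of the library) in either library were compared, as the difference of log2(FPKM + 1), D12S+ minus D12S-. The other libraries of the 12 are used here only as reference points. They are MEFs on day 0 (D0), unsorted cells of day 3 (D3), the Thy-1- and Thy-1+ fractions of days 6 and 9 (D6T-, D6T+, D9T-, D9T+), the SSEA-1+ and SSEA-1- fractions of day 16 (D16S+, D16S-), established induced pluripotent stem cells (iPSCs) and the embryonic stem cell line D3 (mESCs). No library has a replicate, so no difference below was tested, none carries an error between cultures, and the labels do not say how many cultures or embryos each pool of cells came from.

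SSEA-1 is the Lewis x carbohydrate, which fucosyltransferases build at the ends of glycan chains, and in the mouse it marks early embryonic and pluripotent cells. During reprogramming fibroblasts first lose mesenchymal genes such as Thy1 and gain epithelial ones, and a minority of the cells later switch on their own pluripotency network, in which Nanog, Esrrb, Sall4 and their partners keep one another active. In such bulk fractions a lower value can mean fewer cells that express a gene or less RNA in each cell, and these cannot be told apart.

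In D12S+, 679 genes were at least 2-fold higher on this scale, 5.50% of those compared, and 429 genes (3.47%) were at least 2-fold lower. The genes higher in D12S+ were led by the endogenous pluripotency network, de novo DNA methylation genes, the Nodal pathway and epithelial junction genes, with differences of up to 1.55 and 1.68 in genes of DNA replication and mitosis. Among the gene lists examined, collagens, other fibroblast matrix genes and inflammatory cytokines and chemokines lay lower in D12S+, with 11 of 17, 19 of 34 and 10 of 17 at least 2-fold lower. Interferon and antigen-presentation genes were less far apart, with 2 of 24 and 2 of 13. These lists hold only part of the 429 genes. The sides were unlike in size. At 4-fold, 128 genes were higher and 12 lower, and 9 of those 12 were small RNA genes listed at 0 in D12S+. The median difference over all 12354 genes was -0.02, and 74.3% of them lay within 1.5-fold. By any amount, 5932 of them were higher in D12S+ and 6422 lower. List counts of direction alone, given below, are to be read beside these.

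**Figure D1:**
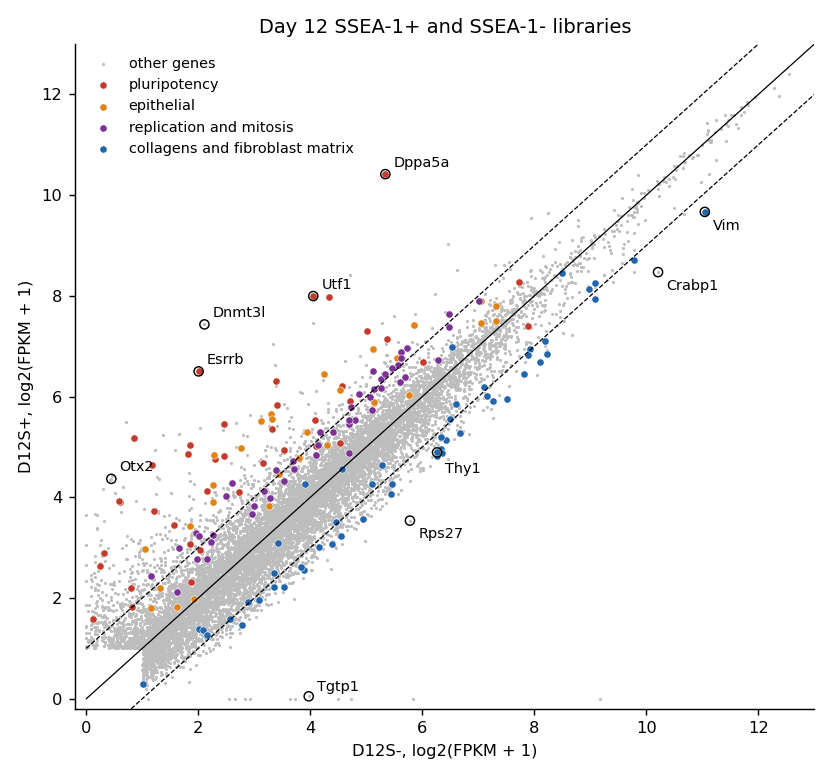
Each point is 1 of the 12354 genes compared, placed by log2(FPKM + 1) in D12S- (x axis) and D12S+ (y axis), with 4 groups of gene lists coloured and the genes named in the plot ringed; the solid line marks equal levels and the dashed lines a difference of 2-fold. Pluripotency genes (red) spread far above the upper line, up to Dppa5a at 1365 FPKM in D12S+ and 39.5 FPKM in D12S-, while collagen and fibroblast matrix genes (blue) run along the lower line and stop close to it.

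Promoters of gene groups whose members lay on 1 side are shown first, because several of these groups share short promoter motifs that are known from other work. The windows run from 250 bases before to 50 bases after a gene's start in RefSeq (GRCm38.p6), and the member shown is the one farthest apart between the fractions whose window holds the motif. Capitals mark the motif on either strand. Ccnb2, a cyclin of mitotic entry, stands for the mitosis genes, with CCAAT boxes and the cell cycle genes homology region TTTGAA.
Ccnb2 promoter, chr9:70421505-70421804, minus strand: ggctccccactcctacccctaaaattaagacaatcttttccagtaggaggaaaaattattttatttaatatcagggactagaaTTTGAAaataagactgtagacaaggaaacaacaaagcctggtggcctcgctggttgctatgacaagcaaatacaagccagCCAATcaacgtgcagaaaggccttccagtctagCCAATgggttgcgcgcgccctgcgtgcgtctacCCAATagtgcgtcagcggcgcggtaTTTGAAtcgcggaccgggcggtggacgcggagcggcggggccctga
Orc1, a subunit of the origin recognition complex, stands for DNA replication, with the E2F-like letters TTTNNCGC. Tjp3, a tight junction scaffold protein, stands for the epithelial genes, with the E-box CAGGTG that Zeb and Snail repressors are known to bind.
Orc1 promoter, chr4:108579204-108579503, plus strand: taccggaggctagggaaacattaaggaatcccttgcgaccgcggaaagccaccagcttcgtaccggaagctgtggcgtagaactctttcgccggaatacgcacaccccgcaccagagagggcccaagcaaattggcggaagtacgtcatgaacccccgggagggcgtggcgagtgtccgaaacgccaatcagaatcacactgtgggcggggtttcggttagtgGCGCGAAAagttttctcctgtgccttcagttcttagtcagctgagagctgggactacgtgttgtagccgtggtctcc
Tjp3 promoter, chr10:81291532-81291831, minus strand: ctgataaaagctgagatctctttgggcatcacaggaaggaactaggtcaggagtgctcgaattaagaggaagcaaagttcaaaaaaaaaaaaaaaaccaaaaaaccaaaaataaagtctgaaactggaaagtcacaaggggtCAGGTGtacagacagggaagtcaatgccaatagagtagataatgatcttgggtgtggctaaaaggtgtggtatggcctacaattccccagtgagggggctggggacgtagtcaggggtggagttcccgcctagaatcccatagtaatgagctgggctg
Gbp3, an interferon-induced GTPase, holds the interferon-stimulated response element, and Cxcl1, a chemokine for neutrophils, holds a kappa B site.
Gbp3 promoter, chr3:142559794-142560093, plus strand: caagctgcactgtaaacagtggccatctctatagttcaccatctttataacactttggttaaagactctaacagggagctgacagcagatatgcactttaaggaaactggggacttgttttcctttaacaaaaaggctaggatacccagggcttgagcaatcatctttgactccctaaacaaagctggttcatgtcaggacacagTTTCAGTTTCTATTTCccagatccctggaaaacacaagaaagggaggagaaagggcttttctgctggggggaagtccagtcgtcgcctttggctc
Cxcl1 promoter, chr5:90890995-90891294, plus strand: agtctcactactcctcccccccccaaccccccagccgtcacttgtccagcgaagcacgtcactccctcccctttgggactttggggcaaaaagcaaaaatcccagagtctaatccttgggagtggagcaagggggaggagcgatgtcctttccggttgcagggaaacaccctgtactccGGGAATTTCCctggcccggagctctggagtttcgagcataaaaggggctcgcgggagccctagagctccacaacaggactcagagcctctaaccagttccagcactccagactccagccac
Both strands were searched for every motif, and a gene counted when any of its windows held the letters. Of the 21 mitosis genes with a window, 17 held CCAAT and 14 held TTTGAA, against 42.8% and 13.9% of all compared genes with a window. TTTNNCGC was in 12 of 20 DNA replication genes against 9.97% of compared genes, and CAGGTG was in 17 of 20 epithelial genes against 21.2%. The interferon-stimulated response element was in 14 of 20 interferon genes against 3.56%, and the kappa B site in 5 of 13 inflammatory genes against 0.488%. Over all windows of this length the shares were 37.4% for CCAAT, 17.9% for TTTGAA, 5.17% for TTTNNCGC, 20.2% for CAGGTG, 3.44% for the interferon element and 0.411% for the kappa B site. The palindromic E-box CACGTG, searched for the germline genes, was in 2 of 8 against 12.0% of compared genes and 7.15% of windows. These counts describe letters in a window and say nothing of binding, and the lists hold well-known targets of these factors by construction.

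Transcription factors of the pluripotency network were higher in D12S+ in all 19 of the 19 members measured, and 15 of them were at least 2-fold higher, where 5.50% of all genes were. Their median difference was 2.03. Esrrb, an orphan nuclear receptor of the naive network, was at 89.5 FPKM in D12S+ and 3.01 in D12S-, a difference of 4.49. Nanog, a homeobox factor at the centre of the network, was at 78.2 FPKM in D12S+ and 9.48 in D12S-, a difference of 2.92. Utf1, a chromatin-bound factor of embryonic stem cells, was at 254 FPKM in D12S+ and 15.6 in D12S-. Zfp42 (Rex1), a late marker of naive pluripotency, was the third farthest apart in the list with 14.1 FPKM in D12S+ and 0.492 in D12S-. Mycn (3.18) and Zscan10 (2.99) lay between Zfp42 and Nanog, each number being the log2 difference. Below Nanog came Prdm14 (2.57), Klf2 (2.42), Nr0b1 (2.35) and Sall4 (2.03). The members nearest to equal were Zfp281, with a difference of 0.46, and Sall1, with 0.54.

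Most of these factors were lower in D12S+ than in the later libraries. Over the 19 members the median D12S+ level was 67.0% of that in D16S+ and 36.6% of that in iPSCs. Nanog stood at 40.8% of D16S+ and Zfp42 at 26.1%, whereas Esrrb stood at 66.6% and Utf1 at 68.3%. The exceptions were Sall1, at 112% of D16S+ and 259% of iPSCs, and, beside iPSCs only, Mycn at 179% and Tcea3 at 139.7%. Zfp42 and Nanog were thus proportionally farther from their day 16 level than Esrrb and Utf1, and Nr5a2 stood at 28.4% of D16S+. Tbx3, a T-box factor, was at 6.70 FPKM in D12S+, 11 in D16S+ and 57.9 in iPSCs. Relative to D9T-, the fraction 3 days earlier that had lost Thy-1, 16 of the 19 were at least 2-fold higher in D12S+ and none was in D12S-, where 2 were at least 2-fold lower. Of all 12354 genes, 8.09% were at least 2-fold above D9T- in D12S+ and 3.45% below it, and in D12S- 4.16% were above and 1.04% below. The 2 day 12 fractions therefore lay on opposite sides of D9T- for this list, at median differences from it of 1.66 for D12S+ and -0.38 for D12S-.

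Of 22 other pluripotency-associated genes measured, 19 were at least 2-fold higher in D12S+ and none was lower by as much, with a median of 1.87. Dppa5a, an RNA-binding protein of pluripotent cells, was at 1365 FPKM in D12S+ and 39.5 in D12S-. Dppa4, a nuclear protein of the same cells, was at 35 and 0.804 FPKM. Dppa3 (Stella), which guards maternal methylation after fertilization, was at 14 and 0.515 FPKM and reached 85.0 in D16S+. Fgf4, the growth factor that embryonic stem cells secrete, was at 28.2 and 2.52 FPKM, and Lin28a, an inhibitor of let-7 processing, at 23.9 and 1.24 FPKM. Not all members were far apart, since Upp1, a uridine phosphorylase, was at 309 and 211 FPKM, and Spp1 (osteopontin) was lower in D12S+, at 168 against 235 FPKM.

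The 4 transgene-carried factors went the other way. Pou5f1 was at 2161 FPKM in D12S+ and 2737 in D12S-, Sox2 at 230.4 and 368 FPKM, Klf4 at 456 and 762 FPKM, and Myc at 318 and 627 FPKM, so all 4 were lower in D12S+, by less than 2-fold each. Retroviral and endogenous transcripts of these genes both count towards such values, and the table does not separate them. The highest level in each pair was thus in the fraction with the lower pluripotency network, and on day 16 all 4 were again lower in the SSEA-1+ fraction (the list's median difference was -1.78 there and -0.71 on day 12).

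Of the genes higher in D12S+, a DNA methylation gene was the farthest apart. Dnmt3l, the catalytically inactive partner of the de novo methyltransferases, was at 172 FPKM in D12S+ and 3.31 in D12S-, a difference of 5.32, and D9T- had 2.30 FPKM. Dnmt3b, a de novo methyltransferase, was at 40.2 and 3.07 FPKM. Dnmt3a, the other de novo enzyme, was at 18.3 and 12.5 FPKM, and the maintenance enzyme Dnmt1 at 94.7 and 70.1. Of the TET enzymes, which oxidise methylated cytosine, Tet1 was higher in D12S+ (12.7 against 1.37 FPKM), Tet2 was closer (9.42 against 5.42) and Tet3 was lower (4.40 against 6.96). The 5 members at least 2-fold higher out of 12 were Dnmt3l, Dnmt3b, Tet1, Uhrf1 and Trim28, the last at 405 and 187 FPKM. Aire, a thymic transcription regulator with the third largest difference, was at 43.8 and 0.626 FPKM. Aire and Dnmt3l are listed under a joint locus, mm9 chr10:77492766-77526367, so their readings may share fragments.

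Among 23 Polycomb and Jumonji genes measured, 6 were at least 2-fold higher and 1 lower. The largest difference in this list, 3.94, was that of Utf1, which is also counted above with the pluripotency factors. The Polycomb reader Cbx7 was at 56.6 FPKM in D12S+ and 10.6 in D12S-, and Cbx8, another reader of the same family, was reversed at 3.81 and 8.99 FPKM. Cbx2 and Cbx6 were nearly level at 7.53 against 5.67 and 42.0 against 39.5 FPKM. The catalytic and core subunits Ezh2, Suz12 and Eed were higher by 0.94, 0.74 and 0.71. Of 16 BAF and other remodelling genes 13 were higher and 3 lower, none past 2-fold. Smarcd1 was at 54.7 and 31.3 FPKM, Smarca2 at 11.6 and 21.5, Smarcc2 at 16.8 and 23.9 and Smarcd3 at 2.38 and 5.13, whereas the ATPase Smarca4 was at 91.4 and 86.9. All 15 genes for histone H3.3 and its chaperones were higher in D12S+, with a median of 0.46. The histone chaperone Nasp was the only one past 2-fold (98.2 against 31.0 FPKM). The H3.3 genes H3f3a and H3f3b were higher by 0.07 and 0.46, the chaperones Hira, Daxx and Atrx by 0.30, 0.50 and 0.67.

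**Figure D2:**
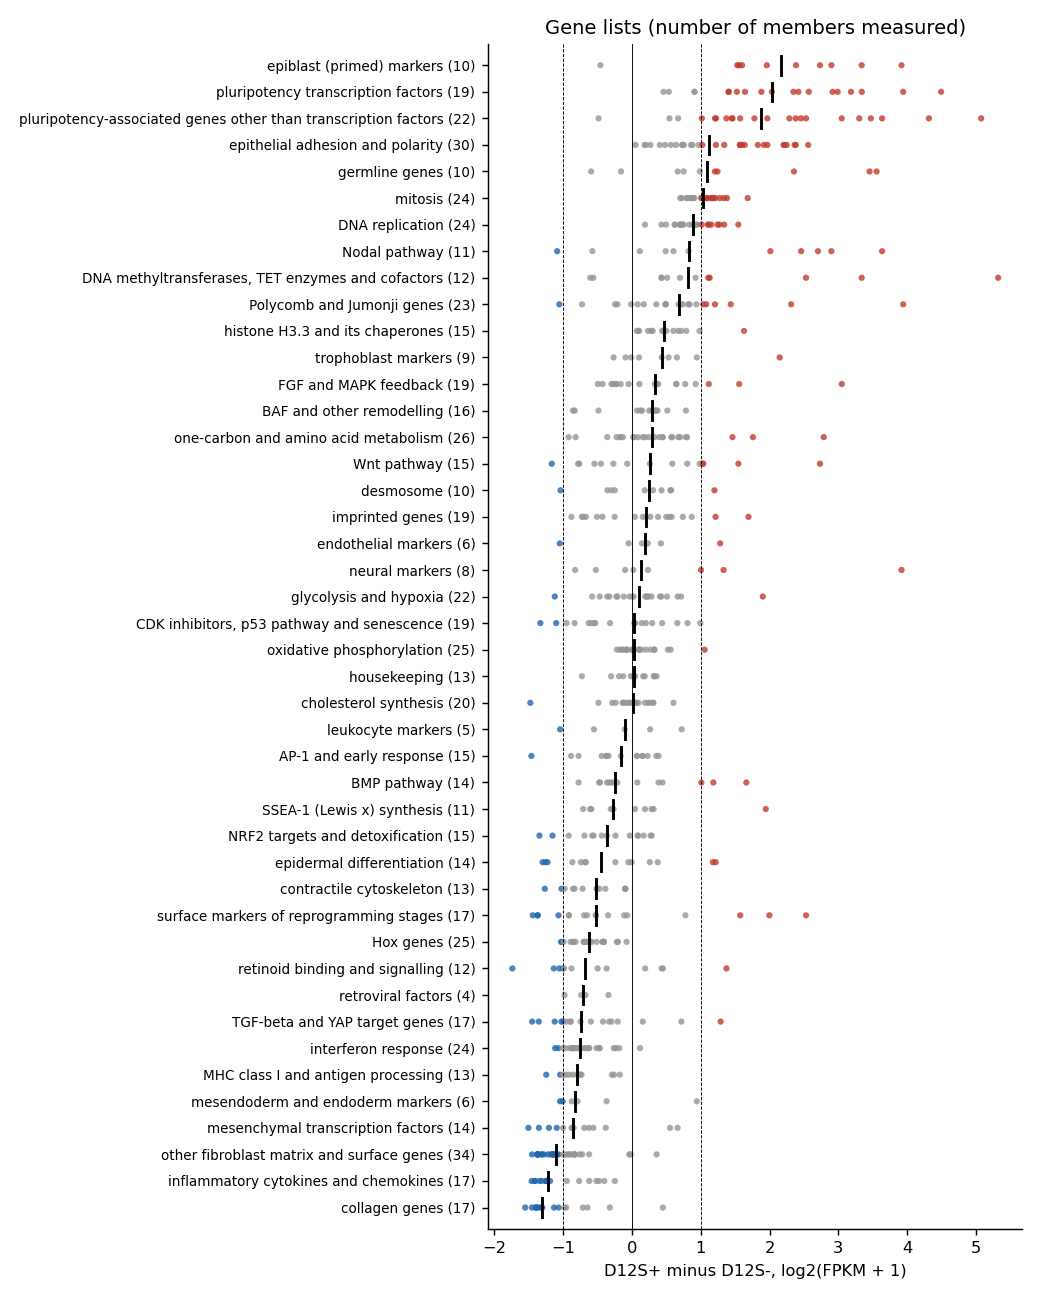
Each row is 1 of the 44 gene lists with at least 4 members measured (their number in brackets), each point 1 gene at its D12S+ minus D12S- difference in log2(FPKM + 1), red where at least 2-fold higher, blue where at least 2-fold lower, and the black bar the list's median. Medians ran from -1.30 for collagen genes to 2.17 for epiblast markers, with housekeeping genes at 0.02.

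Markers of the primed epiblast, the state just after implantation, had the highest list median, 2.17, and 9 of 10 measured were at least 2-fold higher in D12S+. Otx2, a homeobox factor of the forming epiblast, was at 19.6 FPKM in D12S+ and 0.363 in D12S-. It was at 31.3 FPKM in D16S+ and only 1.81 in iPSCs, so its D12S+ level was above that of the established line. Lef1, a nuclear mediator of Wnt signals, was at 12.6 and 1.04 FPKM on day 12, 7.91 in D16S+ and 5.66 in iPSCs. Fgf5, a classic primed marker, was at 2.59 and 0.218 FPKM and at 0.0559 in iPSCs. Foxd3 was at 4.53 and 0.0577 FPKM, Zic2 at 27.6 and 6.34 and Pou3f1 (Oct6) at 6.55 and 1.61. The median D12S+ level of this list was 217% of that in iPSCs, where that of the pluripotency transcription factors was 36.6%. Not all members lay above iPSCs. Dnmt3b was at 40.2 FPKM in D12S+ and 156 in iPSCs, and Nodal at 39.3 and 67.4. Dnmt3b, Nodal, Lef1, Otx2 and Fgf5 are members of other lists here as well.

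In Nodal signalling a ligand of the TGF-beta family acts through the co-receptor Cripto and the factor Foxh1, and 9 of 11 measured members were higher in D12S+ and 2 lower. The ligand Nodal was at 39.3 FPKM in D12S+ and 4.40 in D12S-, its co-receptor Tdgf1 (Cripto) at 250.3 and 19.2, and Foxh1 at 48.5 and 6.59. The secreted inhibitors Lefty1 and Lefty2, which are also targets of the pathway, were at 41.7 and 9.57 FPKM and at 18.9 and 2.63 FPKM. Both inhibitors were higher still in D16S+ (115 and 51.6 FPKM) and low in iPSCs (0.867 and 1.58). Receptors and Smads differed less, with Acvr1b at 16.5 and 11.5 FPKM, Smad2 at 2.17 and 1.93 and Smad3 at 13.1 and 20.0. Follistatin (Fst), an inhibitor of activins, was lower in D12S+ at 4.77 against 11.3 FPKM. In all, 5 members were at least 2-fold higher and 1 lower.

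The related TGF-beta branch leaned to D12S-. Of 17 TGF-beta and YAP genes, 5 were at least 2-fold lower in D12S+ and 1 higher, with a median of -0.75. The receptor Tgfbr2 was at 29.8 FPKM in D12S+ and 66.1 in D12S-, the ligand Tgfb3 at 3.03 and 7.19, and the latent binding protein Ltbp1 at 19 and 53.6. The exception was Skil (SnoN), a repressor induced by the pathway, at 11.1 and 3.96 FPKM. BMP genes were mixed, with the ligands Bmp4 (10.5 against 2.64 FPKM) and Bmp7 (5.62 against 1.92) higher and 8 of 14 members lower, none by 2-fold. In the Wnt list 4 of 15 were at least 2-fold higher, among them Lef1 and Tcf7 (19.9 against 6.16 FPKM), and the inhibitor Dkk2 was lower at 4.48 against 11.3 FPKM. Of the FGF list Fgf4, Fgf5 and the feedback receptor Il17rd were at least 2-fold higher, and the MAPK feedback phosphatases Dusp4 and Dusp6 were lower by 0.50 and 0.43, short of 2-fold.

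All 30 epithelial adhesion and polarity genes were higher in D12S+, 16 of them at least 2-fold, with a median of 1.12. E-cadherin (Cdh1), the adhesion protein of epithelia and of pluripotent colonies, was at 85.8 FPKM in D12S+ and 17.8 in D12S-. Claudin 7 (Cldn7), a tight junction protein, was at 49.5 and 8.79 FPKM, and Tjp3 at 27.8 and 3.88. The trafficking genes Rab25 and Ap1m2 were at 46.1 and 8.91 FPKM and at 44.5 and 7.73 FPKM. The splicing regulator Esrp1 and the transcription factor Grhl2, both of epithelial cells, were at 17.8 and 3.81 FPKM and at 6.82 and 1.07 FPKM. These 7 and the polarity gene Crb3 (30.7 and 5.80 FPKM) were the 8 farthest apart in the list, while the tight junction gene Ocln (2.54 and 2.08 FPKM) and the protease inhibitor Spint1 (64.6 and 53.4 FPKM) were among those nearest to equal. Krt8, Krt18 and Krt19, filament proteins of simple epithelia, were higher in D12S+ by 0.18, 0.40 and 0.48. On day 16 the same 3 keratins were lower in the SSEA-1+ fraction, Krt8 at 149 FPKM in D16S+ and 543 in D16S-, Krt18 at 259 and 664 and Krt19 at 94.2 and 261. For the whole list 30 of 30 were higher on day 12 and 22 of 30 on day 16, and whether the 2 days differ was not tested.

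Epidermal differentiation genes lay on both sides. Of 14 measured, 2 were at least 2-fold higher, Krt17 (33.7 against 13.9 FPKM) and stratifin, Sfn (163 against 71.5 FPKM), and 3 were at least 2-fold lower. Aldh3a1, an aldehyde dehydrogenase abundant in surface epithelia, was at 356 FPKM in D12S+ and 877 in D12S-, Krtdap at 24.4 and 59.7 and Adh7 at 44.1 and 105. The defining keratinocyte markers Krt5 and Trp63 were under 1 FPKM in both libraries, and Krt14 was at 16.4 and 19.6 FPKM. Of the other keratinocyte markers, Lgals7 was abundant at 198 FPKM in D12S+ and 316 in D12S-, and Ivl was at 0.996 and 2.19. In D0 Aldh3a1 was at 3.31 FPKM and Adh7 at 1.33, so neither was abundant in the starting fibroblasts. Desmosome genes, which anchor keratin filaments, were split with 6 of 10 higher, Dsg2 being at 8.18 against 3.00 FPKM and Pkp1 at 28.1 against 58.8.

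Collagen genes were lower in D12S+ in 16 of the 17 measured, 11 of them at least 2-fold, where 3.47% of all genes were. Their median of -1.30 was the lowest of the lists. Col1a1, a chain of the main fibrillar collagen, was at 113 FPKM in D12S+ and 298 in D12S-, and its partner Col1a2 at 60.9 and 180.3. Col6a1, a chain of microfibrillar collagen, was at 102 and 273 FPKM, and Col3a1 at 37.9 and 101. The exception was Col18a1, a basement membrane collagen, at 125 and 91.3 FPKM. Of 34 other matrix and surface genes of fibroblasts, 33 were lower in D12S+ and 19 at least 2-fold lower, with a median of -1.11. Vimentin (Vim), the filament protein of mesenchymal cells, was at 811 and 2108 FPKM, and the hyaluronan receptor Cd44 at 30.2 and 79.6. Fibronectin (Fn1) was near equal at 348 and 358 FPKM. The surface protein Thy1, on which days 6 and 9 were sorted, was at 28.7 FPKM in D12S+ and 75.7 in D12S-, both above the 3.72 of D9T- and below the 669 of D0.

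The mesenchymal transcription factors lay on the same side, with 12 of 14 lower in D12S+ and 4 of them at least 2-fold. Twist2 was at 15.7 FPKM in D12S+ and 46.5 in D12S-, Prrx1 at 10.3 and 27.8, Twist1 at 4.72 and 12.2 and Osr1 at 0.546 and 2.30. Zeb1 and Zeb2, repressors of E-cadherin, were at 2.64 and 5.67 FPKM and at 1.28 and 3.11. In contractile genes the direction was alike in all 13 measured, but 2 were past 2-fold, Acta2 (14.7 against 36.8 FPKM) and Tgfb1i1 (1.61 against 4.31). All 25 Hox genes measured were lower in D12S+, with a median difference of -0.62, and 2 by at least 2-fold, Hoxc6 (6.87 against 15.1 FPKM) and Hoxc8 (1.45 against 3.95).

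Inflammatory cytokine and chemokine genes were lower in D12S+ in all 17 measured and at least 2-fold lower in 10, with a median of -1.23. Ccl2, which attracts monocytes, was at 73.0 FPKM in D12S+ and 187 in D12S-, Ccl7 at 38.9 and 105, and Cxcl1 at 7.0 and 21.0. The cytokine Il6 was at 1.09 and 3.94 FPKM, and the prostaglandin synthase Ptgs2 at 16.7 and 41.1. Nfkbia, the inhibitor that NF-kappa B induces, differed less, at 109 and 144 FPKM. Beside D9T-, 9 of 17 were at least 2-fold lower in D12S+ and 3 of 17 in D12S-. Of the leukocyte markers Ptprc was at 0.0175 and 0.00848 FPKM and Tyrobp and Lyz2 were listed at 0 in both.

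Interferon response genes were lower in 23 of 24, but only 2 were past 2-fold, Gbp3 (24.5 against 54.2 FPKM) and Ifit3 (2.99 against 7.36 FPKM), and the median was -0.75. The transcription factor Irf7, which drives these genes, was at 41.3 and 83.5 FPKM. All 13 genes of MHC class I and antigen processing were lower, with a median of -0.80, for example H2-K1 at 169 and 339 FPKM and the peptide transporter Tap1 at 37.9 and 72.5. Beside D9T-, the MHC class I list was higher in both day 12 fractions, by medians of 0.30 in D12S+ and 0.99 in D12S-. Tgtp1, an interferon-inducible GTPase that belonged to no list, stood apart at 0.0334 FPKM in D12S+ and 14.7 in D12S-, and at 28.7 in D16S-. Its near-identical neighbour gene makes that reading uncertain, because fragments that matched more than 1 locus were removed.

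Proliferation genes were all higher in D12S+. Of the 24 DNA replication genes 8 were at least 2-fold higher, with a median of 0.89 and a range from 0.19 to 1.55. Mcm3, a subunit of the replicative helicase, was at 118 FPKM in D12S+ and 48.2 in D12S-, and Orc1 at 8.80 and 2.86. The clamp Pcna (104 against 77.1 FPKM) and the reductase subunit Rrm1 (28.5 against 24.8 FPKM) were closest to equal. Of the 24 mitosis genes 13 were at least 2-fold higher, with a median of 1.03 and a range from 0.70 to 1.68. Ccnb2 was at 89.9 and 33.9 FPKM, the checkpoint gene Mad2l1 at 18.5 and 5.08, the kinase Plk1 at 86.0 and 39.3, and the proliferation marker Mki67 at 19 and 10.5. The range over mitosis genes was thus far narrower than over pluripotency factors, where it ran from 0.46 to 4.49. D12S- lay slightly below D9T- for both lists (median -0.26 each) and D12S+ above it (0.64 and 0.94).

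Regulators of the entry into the cell cycle were divided. The D-type cyclins Ccnd1 and Ccnd2 were lower in D12S+ at 110 against 237 FPKM and 60.5 against 154 FPKM, while Ccnd3 was at 162 against 147. Ccne1, the cyclin of S phase entry, was higher at 48.0 against 30.0 FPKM. The CDK inhibitors Cdkn1a (p21) and Cdkn2a were lower at 338 against 603 FPKM and 163 against 245 FPKM, and Cdkn1b (p27) was higher at 28.4 against 20.7. Of 19 genes in this list, 2 were past 2-fold, both being cyclins D.

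Metabolic genes were mostly level. The medians were 0.03 for 25 oxidative phosphorylation genes, 0.02 for 20 cholesterol synthesis genes and 0.11 for 22 glycolysis and hypoxia genes. Within the last list the neuronal-type glucose transporter Slc2a3 stood out at 365 FPKM in D12S+ and 96.9 in D12S-, while Slc2a1 was at 835 and 685. Car9, a carbonic anhydrase induced by hypoxia, was lower at 14.3 against 32.3 FPKM. Relative to D9T- both fractions had higher glycolysis and hypoxia genes, by medians of 1.17 in D12S+ and 0.94 in D12S-. This list thus lay farther from D9T- than the fractions lay from each other. D9T- was sorted on Thy-1 and the day 12 fractions on SSEA-1, so day and sort marker cannot be told apart. In one-carbon metabolism 3 of 26 genes were at least 2-fold higher. They were the glycine cleavage genes Amt (43.2 against 5.40 FPKM) and Gldc (17.8 against 5.82) and the threonine dehydrogenase Tdh (198 against 57.8), which feeds that pathway in mouse embryonic stem cells. Genes of retinoid binding and signalling leaned the other way, with 8 of 12 lower in D12S+ and 4 higher. Of these, 4 were at least 2-fold lower and 1 at least 2-fold higher. The binding protein Crabp1, the farthest apart, was at 354 FPKM in D12S+, 1181 in D12S- and 6195 in D0.

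The sort itself can be set beside the enzymes that build SSEA-1. The fucosyltransferases Fut9 and Fut4, which add the terminal fucose of Lewis x, were below the limit of 1 FPKM in both libraries, Fut9 at 0.249 in D12S+ and 0.0216 in D12S- and Fut4 at 0.514 and 0.644. Fut9 was also higher in D16S+ (0.360) than in D16S- (0.0232). B3gnt7, a transferase that extends the underlying sugar chain, was the 1 gene of 11 measured past 2-fold, at 47.5 and 11.6 FPKM. The galactosyltransferase B4galt1 was at 15.1 and 18.4 FPKM. As to other cell types, the 9 pluripotent markers summed to 2117 FPKM in D12S+ and 91.5 in D12S-, all 9 higher, and the 8 fibroblast markers to 220 and 598, all 8 lower. Lum and Fap, 2 of the fibroblast markers, were under 1 FPKM in both. The 7 epithelial markers summed to 745 FPKM in D12S+ and 400 in D12S-, all 7 higher. The 4 smooth muscle markers summed to 48.9 and 98.6, all 4 lower. The 5 keratinocyte markers summed to 216 and 338, with 1 higher and 4 lower, and Lgals7 held 198 and 316 of this. The 5 endothelial markers summed to 12.1 and 17.5 FPKM, with 3 higher and 2 lower. The 5 primitive endoderm markers summed to 1.25 and 2.20, with 1 higher and 4 lower, and only 1 reached 1 FPKM. The 5 trophoblast markers summed to 12.4 and 10.7, with 3 higher and 2 lower. The 5 neural markers summed to 28.5 and 28.1, with 4 higher and 1 lower. The 5 leukocyte markers summed to 70.2 and 73.7, with 2 higher and 1 lower, and Cd68 held 63.5 and 68.3 of this.

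The floor of the lower library differed by direction. For genes of at least 10 FPKM in D12S+, small RNA genes and the 4 viral factors left out, the 10th lowest D12S- level was 2.30% of that in D12S+, and 97 genes were under 25%. For genes of at least 10 FPKM in D12S-, the 10th lowest D12S+ level was 31.3% of that in D12S-, and 4 genes were under 25%, Tgtp1, Rps27, Ly6g6d and Ifitm6. Most abundant genes were close in both directions, since 373 of 6320 and 349 of 6361 were at most 50% of the higher library, and it was the far end of the ranking that differed. Of the 284 genes at least 2-fold lower in D12S+ with 10 FPKM or more in D12S-, 94.0% were at most 3-fold lower. On day 16 both directions reached further, the 10th lowest being 1.32% for D16S- and 5.39% for D16S+, and 561 genes had a D16S+ level under 25% of that in D16S-. The purity of the sorted fractions is not in the table, and its part in these levels was not tested.

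**Figure D3:**
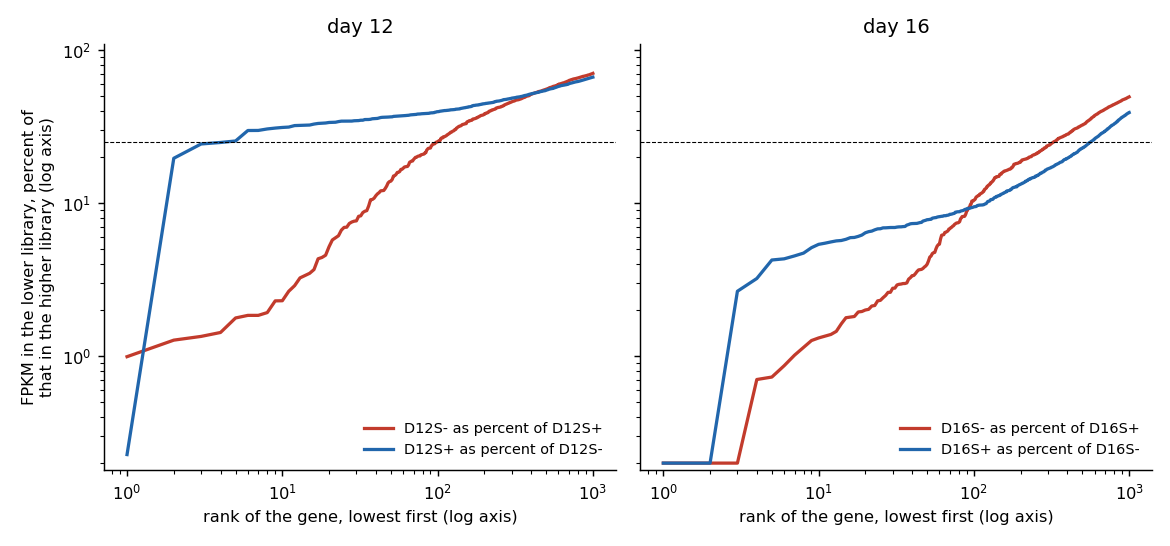
The y axis gives a gene's FPKM in the lower library as a percentage of that in the higher one, for genes of at least 10 FPKM in the higher library, ranked from the lowest (x axis, both axes log, values under 0.2% drawn at 0.2%); red lines rank genes of the SSEA-1+ library and blue lines genes of the SSEA-1- library, on day 12 (left) and day 16 (right), with the dashed line at 25%. On day 12 the blue line is flat near 31.3% at the 10th gene while the red line is at 2.30%, and on day 16 both lie lower, at 5.39% and 1.32%.

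Beside D9T-, the genes higher in D12S+ were mostly above it in that fraction and near it in the other. Of the 679, 550 (81.0%) were at least 2-fold higher in D12S+ than in D9T- and none was lower by as much, whereas in D12S- 10 were higher and 16 lower. The D12S+ and D12S- values chose these genes and enter these counts again, so they are a description beside the 8.09% and 3.45% of all genes for D12S+ and the 4.16% and 1.04% for D12S-. The 429 genes lower in D12S+ divided, as 133 were at least 2-fold lower in D12S+ than in D9T- and 107 were at least 2-fold higher in D12S- than in D9T-. Collagens were of the latter kind, with 11 of 17 at least 2-fold above D9T- in D12S-, where 4.16% of all genes were, while in D12S+ 3 were above and 1 below. These counts rest on 1 D9T- library, which enters both differences. It was sorted on Thy-1 and the day 12 fractions on SSEA-1, so day and sort marker cannot be told apart in them.

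**Figure D4:**
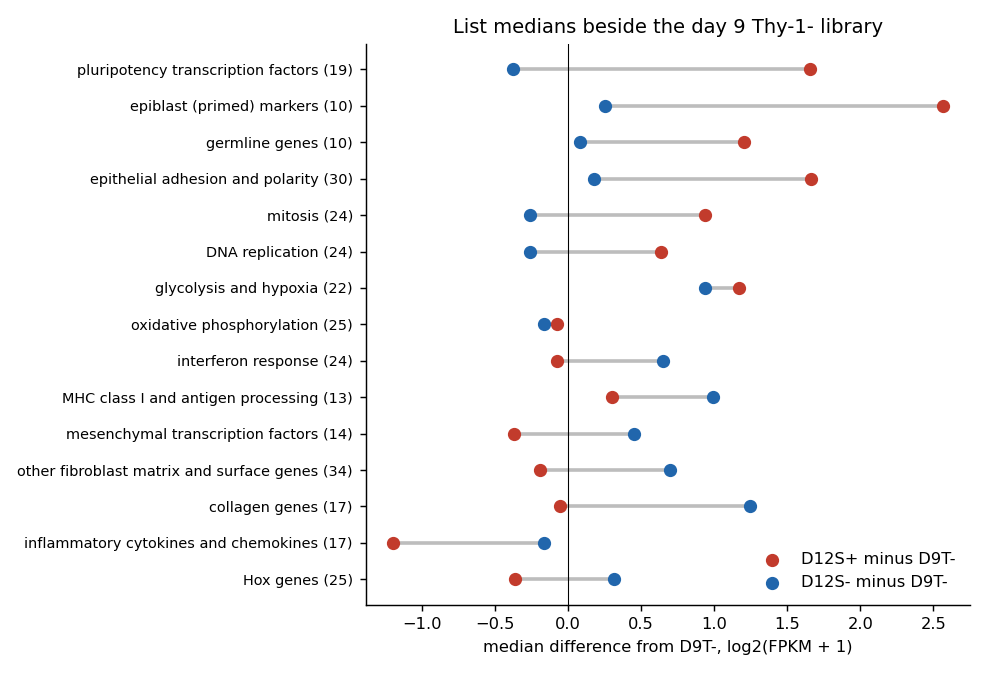
Points give, for 15 gene lists (members measured in brackets), the median difference in log2(FPKM + 1) of D12S+ (red) and D12S- (blue) from the same D9T- library. The medians are 1.66 and -0.38 for pluripotency factors, -0.06 and 1.25 for collagens, -1.20 and -0.17 for inflammatory genes, and 1.17 and 0.94 for glycolysis and hypoxia genes, D12S+ first.

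The day 16 libraries, which the choice of these genes did not use, lay the same way for most of them. Of the 679 genes higher in D12S+, 566 (83.4%) were at least 2-fold higher in D16S+ than in D16S-, where 11.9% of all compared genes were, and these made up 33.9% of the 1669 such genes of day 16. None was at least 2-fold lower. Of the 429 lower genes, 403 (93.9%) were at least 2-fold lower in D16S+ (background 17.2%), which is 18.6% of the 2162 of day 16. The pairs sorted on Thy-1 shared less of the higher side. In D6T- over D6T+, 55 of the 679 (8.10%) were at least 2-fold higher against a background of 3.09%, and 31 were at least 2-fold lower, and on day 9 the count was 90 (13.3%) against 2.00%, with 4 lower. For the lower side the shares were 43.8% on day 6 (background 9.71%) and 39.4% on day 9 (background 6.55%), or 14% and 18.5% of the genes lower in those pairs, and 39 on day 6, 8 on day 9 and 5 on day 16 were at least 2-fold higher. Most genes higher in D12S+ were thus less than 2-fold apart on this scale in the Thy-1 pairs. The pseudocount of 1 draws low values together, as for Nanog at 0.300 FPKM in D6T+ and 0.735 in D6T-. With a pseudocount of 0.1 the shares were 17.1% on day 6 and 28.1% on day 9, with no background counted at that setting. Between iPSCs and D0, 78.9% of the higher genes were higher in iPSCs (background 18.7%) and 71.6% of the lower genes were lower (background 21.7%).

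**Figure D5:**
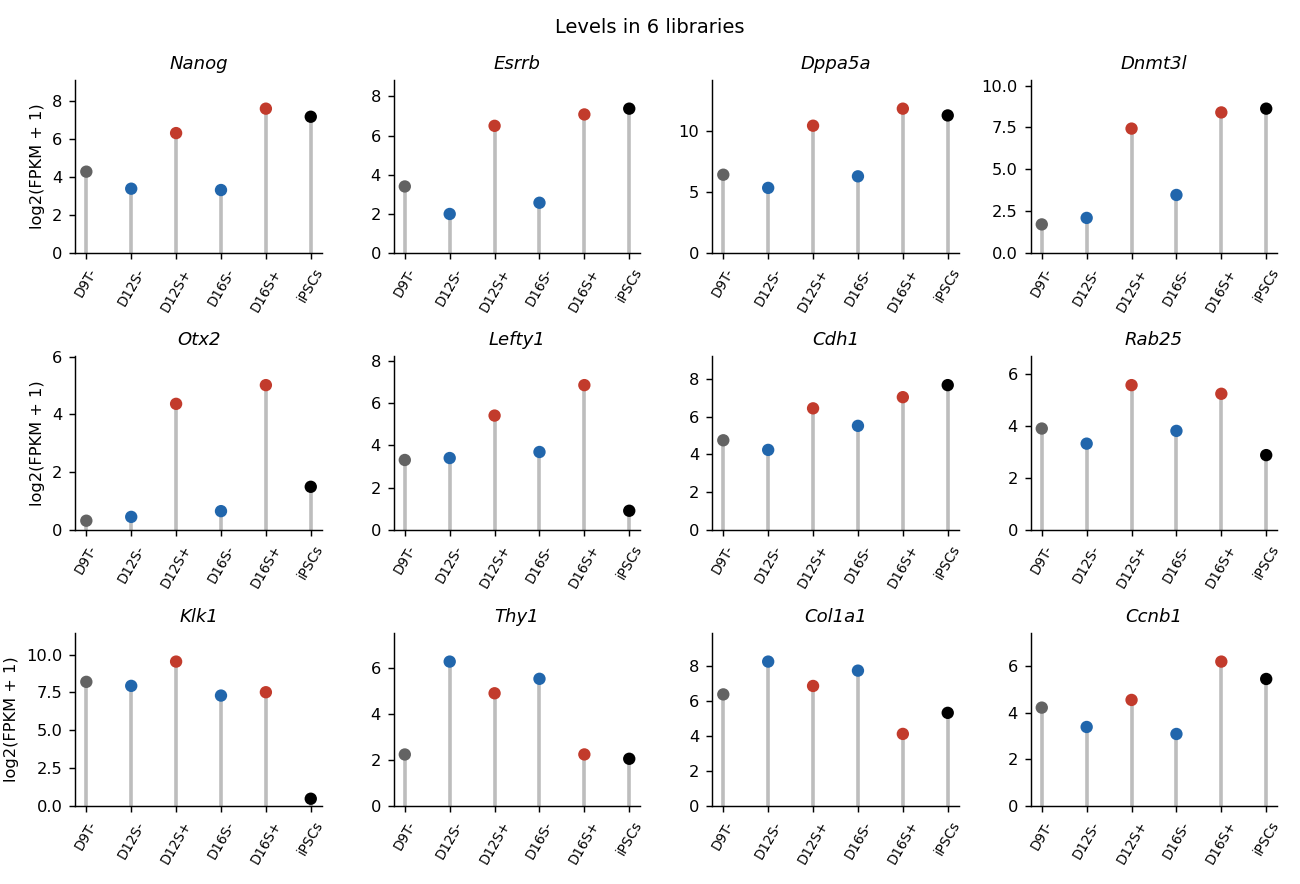
Each panel gives 1 gene's log2(FPKM + 1) in the D9T-, D12S-, D12S+, D16S-, D16S+ and iPSCs libraries (blue for SSEA-1-, red for SSEA-1+), 1 library a point. Nanog, Esrrb, Dppa5a and Dnmt3l are higher in both red points than in the blue ones and stay high in iPSCs, Otx2 and Lefty1 are high in the red points and low in iPSCs, and Klk1 is highest in D12S+.

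Of the 679 genes higher in D12S+, 77 had their highest value of all 12 libraries in D12S+, and 8 were at least 2 times any other library. More had it in mESCs (222), D16S+ (208) or iPSCs (156). Of the 8, 2 were listed at 0 in every other library. D12S+ values chose these genes, and the share over all compared genes was not counted. Klk1, a tissue kallikrein that cleaves kininogen, was at 742 FPKM in D12S+, 244 in D12S-, 293 in D9T- and 182 in D16S+, and at 0.408 in iPSCs and 0 in D0. Its close relatives in the kallikrein cluster make the exact level uncertain. Klk15 (2.53 FPKM in D12S+ and 0.416 in the next library), Pglyrp1 (53.8 and 22.6), Gpr182 (11.6 and 5.57), Upk2 (3.07 and 1.52) and Crip3 (2.06 and 1.02) were the other 5 with the highest ratio to the next library. Pglyrp1 encodes a peptidoglycan recognition protein and Upk2 a uroplakin of the bladder lining. Mir433 was at 7.26 FPKM in D12S+ and listed at 0 in every other library, and no fold is given for it.

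Besides the genes described above, the 12 largest differences were held by Gm7325 (20.5 FPKM in D12S+ and 0.380 in D12S-), the fusion protein gene of muscle that lies at mm9 chr17:45737915-45739051, 2410007B07Rik (19.2 and 0.341), Rbmxl2 (16.8 and 0.227), Ooep (36.5 and 1.58) and Mylpf (341 and 25.1). Rbmxl2 is a germ cell RNA-binding protein and Ooep belongs to the subcortical maternal complex of the oocyte. Germline genes as a list had 5 of 10 at least 2-fold higher and a median of 1.10, led by Tuba3a (17.4 and 0.567 FPKM) and Rpl10l (11.6 and 0.148 FPKM), while 13 of the 23 in the table were below 1 FPKM in both libraries. Of 8 genes of the 2-cell stage listed, only Tcstv1 passed 1 FPKM, at 1.30 FPKM in D12S+ and 0 in D12S-. Mylpf, a light chain of fast muscle myosin, was also at 182 FPKM in D0, so it was not a gene that D0 lacked.

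The 12 largest differences to the lower side were ranked without genes whose locus in the table spans under 300 bases, which left out Mir5133 (0 FPKM in D12S+ and 577 in D12S-) and Mir692-3 (0 and 21.6). Of the 12, 11 are given here, mostly small RNA genes, Snora68, Mir1668, Snora44, Snora65, Snora7a, Snora17 and Snora52, each listed at 0 in D12S+. The D12S- levels of these 7 ran from 4.86 FPKM for Snora52 to 55.7 for Snora68. The others were Tgtp1, Rps27, Actg2 and Ifitm6. Rps27, a ribosomal protein gene at mm9 chr3:90016588-90017570, was at 10.6 FPKM in D12S+ and 53.9 in D12S-, and between 7.56 and 17.7 in the other 10 libraries, so D12S- stood apart from all of them, and near-identical copies of this gene exist. Actg2, a smooth muscle actin, was at 7.79 and 30.5 FPKM, and Ifitm6 at 4.93 and 19.7. With small RNA genes left out, a choice made after the values were seen, the next were Crabp1, Ly6g6d (2.95 and 12.1 FPKM), the tachykinin gene Tac2 (25.9 and 86.8), Acsbg1 (46.7 and 152) and Crym (84.6 and 262.0), a thyroid hormone binding protein. Tac2 was at 145 FPKM in D9T- and at 0 in D0, and Crym at 157 and 1.46, so both were far higher in D9T- than in D0.

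The table gives cuffdiff's interval for each value, and for no gene of the 12354 were the intervals of D12S+ and D12S- apart. Even Dppa5a had intervals of 15.4 to 2715 FPKM in D12S+ and 0 to 92.6 in D12S-. The median half-width was 100.1% of the value in D12S+ over genes of at least 10 FPKM. Total FPKM was 512175 in D12S+ and 528438 in D12S- and between 484968 and 648264 over the 12 libraries. Read totals are not in the table. The steps between low values of 2784 genes gave an estimate of 0.968 for the depth of D12S+ relative to D12S-, which assumes that both were scaled alike by cuffdiff.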

How the data were processed

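Polyadenylated RNA of 12 libraries, 1 per group, was sequenced after a stranded library kit, per the labels. The authors aligned reads to mm9 with STAR, removed those with more than 2 mismatches or more than 1 locus, and computed the deposited FPKM values and their intervals with cuffdiff (versions and annotation are not given in the sources used here). FPKM corrects for transcript length and depth, so counts and read totals are unknown here. The submitters' processing notes name the same tools. Columns were assigned to samples by their names, and 10 status columns were not used as measurements.

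Genes with at least 1 FPKM in D12S+ or D12S- were compared as log2(FPKM + 1) with pandas 2.3.3 and numpy 2.4.6 in python 3.11.15, and figures were drawn with matplotlib 3.10.9. The pseudocount of 1 understates differences of low genes. With 1 library a side no test was run and no p is given. An exact 0 can be a failed estimate. Named genes are the 12 largest differences in each direction (the 4 viral factors and loci under 300 bases left out), the 6 with the highest ratio of D12S+ to the next library, and list members. Some genes that met this rule are not reported here. The 45 lists and all members were chosen with earlier results of these data known. Alternatives were a pseudocount of 0.1, filters of 5 FPKM and none, a 4-fold limit and 2 other scalings, and, added after seeing the data, leaving out small RNA genes, recognised by their symbols. Promoter windows came from RefSeq (GRCm38.p6) and were matched by symbol, with no coordinates carried between builds.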

Additional observations from a re-analysis of the deposited data

Results flagged for a closer look

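Among the genes named, 4 small nucleolar RNA genes lay on opposite sides on days 12 and 16, which drew attention to them, and no test compared the days. Snora65 was listed at 0 in D12S+ and at 11.5 FPKM in D12S- (log2 difference -3.64), and at 12.5 FPKM in D16S+ and 0 in D16S-. Snora7a was at 0 and 6.16 FPKM on day 12 (-2.84) and at 6.89 and 0 on day 16. Snora17 was at 0 and 5.33 FPKM (-2.66), then 11.98 and 0. Snora52 was at 0 and 4.86 FPKM (-2.55), then 19.2 and 0. Each value rests on 1 library.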

How the results depend on the processing

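With a pseudocount of 0.1, 960 genes were at least 2-fold higher and 850 lower, and the shares of higher genes that lay the same way were 17.1% on day 6 and 28.1% on day 9. At 4-fold, 128 genes were higher and 12 lower. The shares among the higher genes were then 0.781% on day 6 and 0.781% on day 9. Among the lower genes they were 16.7% on day 6, 25% on day 9, 25% on day 16 and 16.7% between iPSCs and D0. The last 4 shares rest on 12 genes. For neither setting was the share over all compared genes counted, so these shares have no background beside them. A filter of 5 FPKM gave 466 and 379 genes, equal total FPKM 723 and 369, median-of-ratios scaling 703 and 392, and leaving out small RNA genes 676 and 419. No value reversed by the rule used. However, 6 of the 45 list medians changed sign or became 0 under some alternative, all with an absolute median of at most 0.33. The germline median of 1.10 was not stable. It was 2.32 with a pseudocount of 0.1, 2.36 with a filter of 5 FPKM and 0.53 with no filter. The scalings shifted all genes by 0.05 and 0.03 on the log2 scale. No paired analysis was possible because each group has 1 library. The precision between cultures is unknown, and no replicate could be left out.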
